A study of Saccharomyces cerevisiae and Kluyveromyces marxianus with 18 samples.

Results

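The genes described here encode proteins of the cytosolic ribosome, followed through chemostat cultures of 2 yeasts grown with and without oxygen. The members were chosen by name and not by their values: a list of 55 S. cerevisiae S288C loci, 39 for proteins of the large subunit (RPL), 14 for the small subunit (RPS) and 2 for the stalk (RPP). A gene of either yeast was a member if the S288C counterpart that the authors gave for it included a listed locus. This gave 94 genes in all, 43 of 5330 in Kluyveromyces marxianus and 51 of 6171 in Saccharomyces cerevisiae, and every one of them passed the filter on low counts. The entries covered 42 of the listed loci in K. marxianus and 48 in S. cerevisiae. The 13 loci with no entry in K. marxianus included RPL10, RPL40A and RPS31, and the 7 with none in S. cerevisiae included RPL7A and RPL25. Paralog pairs share an entry in 9 K. marxianus and 12 S. cerevisiae genes, written here with a slash (RPL9A/RPL9B). Reads that map to several places were not counted, so the counts of near-identical paralogs are uncertain. The members that recur below are RPL3 (YOR063W), RPL4A (YBR031W), RPL8A (YHL033C), RPL30 (YGL030W), RPL32 (YBL092W), RPL38 (YLR325C) and RPL39 (YJL189W) of the large subunit, RPS12 (YOR369C) of the small subunit and RPP1A (YDL081C) of the stalk.

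All cultures were wild-type strains, CBS6556 for K. marxianus and CEN.PK113-7D for S. cerevisiae, held in chemostats at a dilution rate of 0.1 per hour and pH 6 on urea medium with antifoam. Unsupplemented cultures of S. cerevisiae alone had no oxygen, 0 mg/L Tween 80 (a source of unsaturated fatty acid) and 0 mg/L ergosterol. T cultures had no oxygen, 420 mg/L Tween 80 and 0 mg/L ergosterol, and TE cultures had no oxygen, 420 mg/L Tween 80 and 10 mg/L ergosterol. Olim cultures were oxygen-limited with 420 mg/L Tween 80 and 10 mg/L ergosterol, and aerobic cultures had 0 mg/L Tween 80 and 10 mg/L ergosterol. Glucose in the feed was 7.5 g/L in aerobic cultures and 20 g/L in every other group, so that in a comparison with aerobic cultures the effects of oxygen, glucose and Tween 80 cannot be told apart. Each group had 2 libraries of poly(A) RNA, 18 in all. The series text calls them biological replicates. No source used here says that they came from separate chemostats, so the p-values measure the spread between these libraries.

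A cytosolic ribosome contains equal numbers of nearly all its proteins, and yeast transcribes their genes together. In S. cerevisiae, Rap1 binds most of these promoters and recruits Fhl1 with its coactivator Ifh1, and Sfp1 and the kinases Tor1 and Sch9 tie transcription to nutrients. Fast growth is known to go with high levels of these mRNAs, which is why chemostats, with a growth rate set by the pump, are used to compare other conditions. Many S. cerevisiae members exist as paralog pairs and many carry an intron. An intron was annotated in 30 of the 55 listed loci (54.5%) in the S288C reference R64, against 5.46% of all its protein-coding genes.

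The Rap1 sequence is the feature for which these promoters are known, and it is shown here for 5 members of S288C (R64), with its letters in capitals: CACCC, any pair of bases, then ACA. Each line is a 40-base window on the strand of the gene, and capitals that begin with TGT are the same motif read on the other strand. The first, RPL8A, is, with RPL4A, a member whose S. cerevisiae values ran apart from most others below.
RPL8A, chrVIII:36241-36280 (minus strand): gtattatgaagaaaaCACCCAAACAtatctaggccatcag
RPL13A, chrIV:308128-308167 (plus strand): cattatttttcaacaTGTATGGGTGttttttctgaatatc
RPL14A, chrXI:431480-431519 (plus strand): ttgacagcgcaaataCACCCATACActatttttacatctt
RPL33A, chrXVI:281752-281791 (plus strand): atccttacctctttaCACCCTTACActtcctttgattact
RPL34A, chrV:270473-270512 (minus strand): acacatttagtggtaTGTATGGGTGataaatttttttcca
These letters lay 240, 281, 411, 355 and 312 bases before the coding sequence in the order shown. On either strand of the 500 bases before the coding sequence, the Rap1 letters were found in 8 of 55 listed loci (14.5%) and in 133 of 6000 protein-coding genes (2.22%). GACGCANA, searched for Fhl1, was found in 9 of the 55 (16.4%) and in 282 of the 6000 (4.7%). A match describes the letters alone, and no match says only that these letters are not in the window.

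The libraries held 6510449 to 10660870 counts in K. marxianus and 2849618 to 13112466 in S. cerevisiae. Unsupplemented replicate 2 was the shallowest library and stood apart: a single gene took 19.8% of its counts, and its log2 levels correlated with those of unsupplemented replicate 1 at r = 0.743 over all genes tested, against 0.952 or more between the replicates of every other group. Fitted with all groups, the S. cerevisiae libraries had a biological coefficient of variation of 32.1%, against 12.8% without the unsupplemented libraries, and 15.5% in K. marxianus. Counts of called S. cerevisiae members are therefore given with and without the unsupplemented libraries wherever that group is not itself compared. The Olim replicates of S. cerevisiae also differed, with all 51 members higher in replicate 1, by a median of 0.913 on the log2 scale. In aerobic cultures all 51 members were also higher in replicate 1 (median 0.204), and in T cultures 41 were (0.0703). In TE cultures 2 of 51 were higher in replicate 1 (median -0.339, replicate 1 minus replicate 2). For unsupplemented cultures these values were 13 and -0.716. ANB1, the oxygen-repressed form of a translation factor, was at 836 and 2320 CPM (counts scaled to a common library size, by TMM) in unsupplemented, 437 and 412 in T and 646 and 680 in TE cultures, against 5.49 and 1.4 in Olim and 0.583 and 0.136 in aerobic cultures. It was thus high in the cultures labelled as free of oxygen and near 0 in Olim and aerobic cultures. CYC1 and COX5A, aerobic forms, were lower in every library labelled free of oxygen than in any Olim or aerobic library. Other markers varied. CYC7, a hypoxic form, had 27.2 and 24.8 CPM in T, 105 and 188 in Olim and 24.7 and 29.6 in aerobic cultures. COX5B, also hypoxic, had 61.5 and 68 CPM in T against 87.7 and 103 in Olim cultures. HYP2, an aerobic form, had 2412 CPM in unsupplemented replicate 2, against 3202 and 2963 in aerobic cultures.

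Members were among the most abundant mRNAs in both species, and their summed share followed a different order of conditions in each. In K. marxianus they took 13.9% and 14.8% of all counts in T cultures, 10.8% and 11.5% in TE cultures, 5.47% and 5.27% in Olim cultures and 6.6% and 6.95% in aerobic cultures. T was highest and Olim lowest, and no pair of groups overlapped. The S. cerevisiae members took 6.51% and 6.09% in unsupplemented cultures, 4.38% and 4.19% in T, 8.04% and 9.61% in TE, 12.1% and 6.96% in Olim and 4.25% and 3.72% in aerobic cultures. Here TE and Olim were highest and overlapped, T and aerobic were lowest and overlapped, and the unsupplemented cultures lay between them. The means for T and TE were 14.4% ± 0.636 and 11.2% ± 0.495 in K. marxianus, and 4.28% ± 0.134 and 8.82% ± 1.11 in S. cerevisiae (SD, n = 2 each). An exact permutation test of 2 libraries against 2 cannot give a p below 0.333, and no other test of the shares was run. Over every ribosomal protein gene found in the files, members and others, the mean shares were 26.8%, 19.6%, 8.95% and 11.4% in T, TE, Olim and aerobic cultures of K. marxianus, and 10.3%, 7.32%, 15.4%, 16.6% and 6.83% in unsupplemented, T, TE, Olim and aerobic cultures of S. cerevisiae. Counts are shares of a library, so more mRNA of these genes per cell and less of other mRNA cannot be told apart.

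**Figure D1:**
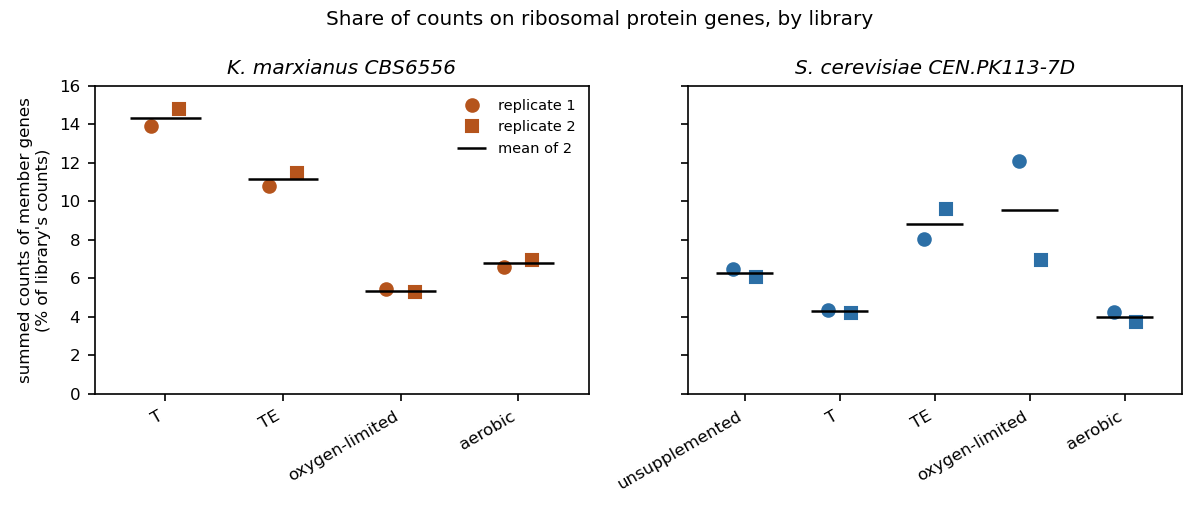
Summed share of the member genes in all counts of each library (percent), by group, with each replicate as a point and the mean as a line. In K. marxianus the T libraries sit at 13.9% and 14.8% and the Olim libraries at 5.47% and 5.27%; in S. cerevisiae the T libraries sit at 4.38% and 4.19% and the Olim libraries at 12.1% and 6.96%.

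Per kilobase of gene, the mean level of a member over the groups ranged from 620 to 14000 CPM per kb in K. marxianus, with a median of 2820, and from 358 to 10500 in S. cerevisiae, with a median of 1790. Over all genes tested the medians were 60.8 and 55.5 CPM per kb. All 43 K. marxianus members and 50 of 51 S. cerevisiae members were above the 90th percentile of their species, the exception being RPL34A of S. cerevisiae. The most abundant members of K. marxianus by this measure were RPL38 (13966 CPM per kb), RPS12 (10894), RPL32 (7777), RPS20 (7159) and RPL11A (5908). The corresponding S. cerevisiae genes were RPS31 (10526), made as a fusion to ubiquitin, then RPS20 (6600), RPL10 (6519), RPS12 (6314) and RPL38 (6046). RPL38, RPS12 and RPS20 were in both sets of 5. The lowest value in S. cerevisiae was that of RPL34A, at 358. Gene length here includes the intron, and RPL34A spans 763 bases in the counted annotation, against 366 coding bases in R64, so that values per kb of members with an intron are understated and their place in this order depends on it. Many S. cerevisiae members also have a paralog that these values do not include.

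**Figure D2:**
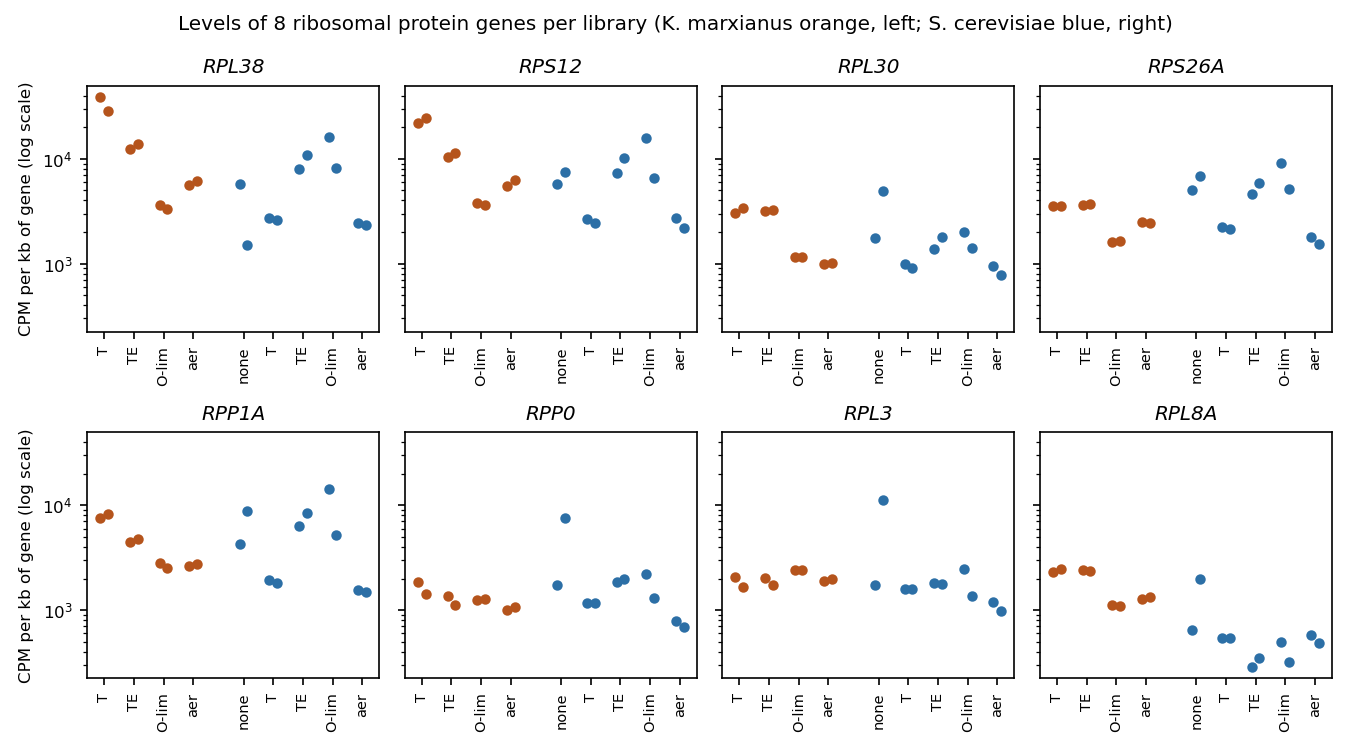
Level of 8 members in each library (CPM per kb of gene, log axis), by group, with each replicate as a point. RPL38 and RPS12 of K. marxianus are highest in T cultures, while RPL3 of K. marxianus stays within a narrow band. In S. cerevisiae RPL8A is lowest in TE cultures, where RPP1A and RPL38 are above their T and aerobic levels.

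Oxygen limitation in K. marxianus was compared with aerobic growth. Most members were lower in Olim than in aerobic cultures, by small amounts. In edgeR's quasi-likelihood test with Benjamini-Hochberg adjustment over all genes tested, called at an adjusted p of 0.05, 21 of 43 members fell and 1 rose, where 25% of all genes tested fell and 22% rose. The members' median log2 fold change was -0.39, beside -0.08 for all genes tested. The libraries of both groups did not overlap for 34 members that were lower and 7 that were higher. Of all 5143 genes tested, 2480 lay apart lower and 2014 higher, so most genes did not overlap. RPL32, a large-subunit protein, had 838 and 911 CPM in Olim cultures, against 1435 and 1611 CPM in aerobic cultures. The log2 fold change of RPL32 was -0.80 ± 0.17 (SE; adjusted p = 0.00826, edgeR quasi-likelihood test), with no overlap. A gene listed as RPL9A/RPL9B (2 genes share this entry), for a protein near the base of the stalk, had 567 and 597 CPM in Olim cultures against 953 and 1055 CPM in aerobic cultures, a log2 fold change of -0.79 ± 0.15 (adjusted p = 0.00474, edgeR quasi-likelihood test). The gene that rose was RPS2, a small-subunit protein at the mRNA entry channel, at 1087 and 1072 CPM in Olim cultures against 722 and 802 CPM in aerobic cultures (log2 fold change 0.50 ± 0.16, adjusted p = 0.0366, edgeR quasi-likelihood test). RPL3, a core large-subunit protein near the peptidyl transferase centre, was at 2785 and 2792 CPM in Olim cultures and 2181 and 2310 CPM in aerobic cultures, with no overlap, but its log2 fold change of 0.31 ± 0.16 was not called (adjusted p = 0.137, edgeR quasi-likelihood test). The count depended on single libraries: it was 0 without Olim replicate 2 or aerobic replicate 2, 1 without Olim replicate 1, 10 without aerobic replicate 1, 14 without either TE replicate and 35 without either T replicate.

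Without oxygen but with both supplements, nearly every K. marxianus member was higher than in aerobic cultures. Of 43 members 36 rose and 0 fell in TE cultures, where 27.9% of all genes tested rose and 28.6% fell; the median log2 fold change was 0.71, beside -0.02 for all genes tested. RPL30, a large-subunit protein that in S. cerevisiae binds its own transcript and blocks its splicing, had the largest difference. It had 1840 and 1898 CPM in TE cultures, against 584 and 596 CPM in aerobic cultures. That is a log2 fold change of 1.66 ± 0.12 (adjusted p = 4.43e-05, edgeR quasi-likelihood test), with no overlap. RPL38 had 2907 and 3246 CPM in TE cultures against 1330 and 1453 CPM in aerobic cultures, a log2 fold change of 1.14 ± 0.18 (adjusted p = 0.00144, edgeR quasi-likelihood test). The 7 members not called were RPL3, RPL4A, RPL22A, RPL34A, RPP0, RPS0A and RPS13. RPL4A, whose product reaches into the peptide exit tunnel, was at 3306 and 2959 CPM in TE cultures and 2960 and 3010 CPM in aerobic cultures, and RPL3 at 2366 and 2026 CPM in TE cultures and 2181 and 2310 CPM in aerobic cultures. Both overlapped, with log2 fold changes of 0.07 ± 0.15 (adjusted p = 0.716) and -0.03 ± 0.15 (adjusted p = 0.871, edgeR quasi-likelihood test). Without aerobic replicate 1 the count of called members was 22.

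Set against Olim cultures, which had the same glucose and supplements, the TE cultures of K. marxianus showed larger differences. In this comparison 39 of 43 members rose and 0 fell, where 25.7% of all genes tested rose and 26.3% fell; the members' values centred at 1.04 (median log2 fold change), beside -0.02 for all genes tested. For 24 members the log2 fold change was 1 or more. RPL38 had 2907 and 3246 CPM in TE cultures against 860 and 778 CPM in Olim cultures (log2 fold change 1.91 ± 0.18, adjusted p = 0.000276, edgeR quasi-likelihood test). The RPL9A/RPL9B gene described above had 1781 and 2229 CPM in TE cultures against 567 and 597 CPM in Olim cultures (1.78 ± 0.15, adjusted p = 0.00018, edgeR quasi-likelihood test). RPS26A, a small-subunit protein at the mRNA exit channel, had 3219 and 3306 CPM in TE cultures against 1439 and 1459 CPM in Olim cultures (1.17 ± 0.12, adjusted p = 0.000314, edgeR quasi-likelihood test). The groups did not overlap for any of these 3 genes. The members not called were RPL3, RPL4A, RPP0 and RPS0A. RPP0, the protein that anchors the stalk, was at 1267 and 1055 CPM in TE cultures and 1170 and 1205 CPM in Olim cultures, a log2 fold change of -0.03 ± 0.17 (adjusted p = 0.886, edgeR quasi-likelihood test). Its partner RPP1A, an acidic stalk protein, rose to 1452 and 1538 CPM in TE cultures, against 921 and 822 CPM in Olim cultures (0.78 ± 0.13, adjusted p = 0.00242, edgeR quasi-likelihood test). RPL3 was lower in both TE libraries, at 2366 and 2026 CPM against 2785 and 2792 CPM in Olim cultures, and was not called (-0.34 ± 0.16, adjusted p = 0.1, edgeR quasi-likelihood test). This comparison shares its TE libraries with the one before and its Olim libraries with the first.

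Without ergosterol, anaerobic K. marxianus members went both ways, mostly up. In T cultures 23 of 43 members rose and 3 fell relative to TE cultures, where 18.9% of all genes tested rose and 18.4% fell; the median log2 fold change was 0.49, beside 0.03 for all genes tested. RPL32 had 6350 and 8522 CPM in T cultures against 2291 and 2494 CPM in TE cultures (log2 fold change 1.64 ± 0.18, adjusted p = 0.00178, edgeR quasi-likelihood test). RPL38 had 9164 and 6742 CPM in T cultures against 2907 and 3246 CPM in TE cultures (1.37 ± 0.18, adjusted p = 0.00263, edgeR quasi-likelihood test), and RPS12 had 8848 and 9980 CPM in T cultures against 4177 and 4569 CPM in TE cultures (1.11 ± 0.14, adjusted p = 0.00234, edgeR quasi-likelihood test). In each of these 3 the T libraries lay above the TE libraries. They were among the most abundant members by a mean over groups, which itself includes the T values compared here. Among the members that fell were RPL4A and RPL5, which binds the 5S rRNA. RPL4A had 2424 and 1908 CPM in T cultures against 3306 and 2959 CPM in TE cultures (-0.53 ± 0.15, adjusted p = 0.0316, edgeR quasi-likelihood test). RPL5 had 2793 and 2538 CPM in T cultures against 3700 and 3567 CPM in TE cultures (-0.45 ± 0.12, adjusted p = 0.0266, edgeR quasi-likelihood test), while RPL11A, its partner in 5S rRNA binding, rose to 6085 and 5664 CPM in T cultures, against 3268 and 3834 CPM in TE cultures (0.73 ± 0.14, adjusted p = 0.00851, edgeR quasi-likelihood test). RPL30, RPL8A and RPS26A had log2 fold changes of 0.00, -0.01 and -0.04 here and were not called (adjusted p = 0.982, 0.946 and 0.832, edgeR quasi-likelihood test). Without TE replicate 1 the number of members called in either direction was 11, and it was 17 without TE replicate 2, against 26 with all libraries; a fit of the T and TE libraries alone called 0.

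By subunit, the K. marxianus medians for the 30 large-subunit, 11 small-subunit and 2 stalk genes were -0.41, -0.50 and 0.15 on the log2 scale for Olim against aerobic, 0.72, 0.64 and 0.52 for TE against aerobic, 1.14, 1.04 and 0.37 for TE against Olim and 0.57, 0.37 and 0.59 for T against TE cultures. Of the stalk genes, RPP1A was called in 3 of these comparisons and RPP0 in 0 of them (edgeR quasi-likelihood test). RPS3, a small-subunit protein at the mRNA entry channel, had log2 fold changes of -0.23 (adjusted p = 0.239), 0.70 (adjusted p = 0.00563), 0.93 (adjusted p = 0.00203) and -0.21 (adjusted p = 0.291; edgeR quasi-likelihood test) in the same order.

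In S. cerevisiae the members were higher in Olim than in aerobic cultures. With all 10 libraries in the fit, 19 of 51 members rose and 0 fell, where 7.98% of all genes tested rose and 6.12% fell; the members' log2 fold changes centred at 1.37, beside -0.03 for all genes tested. Without the unsupplemented libraries 46 rose and 0 fell, where 31.2% and 30.8% of all genes tested rose and fell. The authors' deposited table, on the same fold changes, had 33 members higher at an adjusted p of 0.05, among 12.4% of all genes. For 40 members the log2 fold change was 1 or more, and 47 were higher with no overlap between Olim and aerobic libraries. Of all 5868 genes tested, 2208 lay apart higher and 2457 lower, so most genes did not overlap. RPL39, a small protein at the mouth of the exit tunnel (chromosome 10, 64717 to 65258 in the authors' annotation), had 1033 and 580 CPM in Olim cultures against 119 and 105 CPM in aerobic cultures. This is a log2 fold change of 2.85 ± 0.36 (adjusted p = 0.0041, edgeR quasi-likelihood test). RPP1A had 4607 and 1682 CPM in Olim cultures against 503 and 480 CPM in aerobic cultures (2.68 ± 0.57, adjusted p = 0.022, edgeR quasi-likelihood test). RPS26A had 3268 and 1872 CPM in Olim cultures against 642 and 553 CPM in aerobic cultures (2.10 ± 0.38, adjusted p = 0.0131, edgeR quasi-likelihood test). In these genes both Olim libraries were above both aerobic libraries, and Olim replicate 1 was the higher. The exceptions were RPL4A, at 779 and 500 CPM in Olim cultures and 696 and 606 CPM in aerobic cultures (-0.03 ± 0.78, adjusted p = 0.987), and RPL8A, at 386 and 247 CPM in Olim cultures and 446 and 373 CPM in aerobic cultures (-0.37 ± 0.49, adjusted p = 0.666, edgeR quasi-likelihood test). Both overlapped. Of the other genes with a Rap1 window above, RPL14A rose (1.81, adjusted p = 0.026), while RPL13A, RPL33A and RPL34A had log2 fold changes of 1.24, 1.6 and 1.04 and were not called (adjusted p = 0.089, 0.058 and 0.067, edgeR quasi-likelihood test). Without either aerobic replicate 0 members were called. Without Olim replicate 1 the count was 5 and the median log2 fold change 0.87; the count was 5 without either T replicate, 7 without either TE replicate and 46 without either unsupplemented replicate.

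TE cultures of S. cerevisiae, compared with the same aerobic libraries, also had higher levels of most members. With all libraries 13 of 51 members rose and 0 fell, where 6.15% of all genes tested rose and 6.95% fell; the median log2 fold change was 1.24, beside -0.01 for all genes tested. Without the unsupplemented libraries 47 rose and 1 fell, where 31.2% of all genes tested rose and 27.1% fell. The authors' deposited table had 26 higher, among 10.3% of all genes. RPL39 had 510 and 750 CPM in TE cultures against 119 and 105 CPM in aerobic cultures (log2 fold change 2.49 ± 0.35, adjusted p = 0.00449, edgeR quasi-likelihood test), and RPP1A had 2018 and 2696 CPM in TE cultures against 503 and 480 CPM in aerobic cultures (2.26 ± 0.56, adjusted p = 0.0383, edgeR quasi-likelihood test). The member that fell without the unsupplemented libraries was RPL8A, a large-subunit protein. It had 222 and 268 CPM in TE cultures against 446 and 373 CPM in aerobic cultures, so that both TE libraries were lower. Its log2 fold change was -0.74 ± 0.49 with all libraries (adjusted p = 0.393) and -0.69 without the unsupplemented ones (adjusted p = 0.0257, edgeR quasi-likelihood test). RPL4A was at 827 and 839 CPM in TE cultures and 696 and 606 CPM in aerobic cultures (0.36 ± 0.78, adjusted p = 0.835, edgeR quasi-likelihood test). RPL10, a late-joining protein needed before the subunits can join, had 4795 and 6401 CPM in TE cultures against 2791 and 2547 CPM in aerobic cultures (1.07 ± 0.46, adjusted p = 0.18 with all libraries, 0.0225 without the unsupplemented ones, edgeR quasi-likelihood test). The count was 0 without either aerobic replicate, 1 without either TE replicate, 2 without either T replicate and 47 without either unsupplemented replicate.

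In TE relative to Olim cultures of S. cerevisiae, 0 of 51 members were called by edgeR's quasi-likelihood test, where 0.835% of all genes tested rose and 1.28% fell. Without the unsupplemented libraries the count was also 0, where 19.1% and 19.7% of all genes tested rose and fell; 0 members had an unadjusted p under 0.05, and DESeq2 called 0. The median log2 fold change was -0.24, beside -0.01 for all genes tested. The libraries overlapped for 49 members, and for 1933 of all 5868 genes tested. The median was 0.33 without Olim replicate 1 and -0.64 without Olim replicate 2. RPL32, among the lowest, was at 960 and 1168 CPM in TE cultures and 2169 and 1223 CPM in Olim cultures (-0.67 ± 0.38, adjusted p = 0.479), and RPL22A, an rRNA-binding protein, was at 654 and 788 CPM in TE cultures and 1446 and 719 CPM in Olim cultures (-0.59 ± 0.35, adjusted p = 0.509, edgeR quasi-likelihood test). The highest were RPL4A at 0.38 ± 0.78 and an RPL9A/RPL9B gene at 0.24 ± 0.75 (adjusted p = 0.922 and 0.958, edgeR quasi-likelihood test). The spread between the 2 Olim libraries, a median of 0.913 over the members, was larger than this difference, which was not detectable with these libraries.

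Without ergosterol most members were at lower levels in S. cerevisiae. With all libraries 0 of 51 members rose and 3 fell in T relative to TE cultures, where 1.72% of all genes tested rose and 3.32% fell. The median log2 fold change was -1.10, beside -0.00 for all genes tested. For 49 members both T libraries were below both TE libraries, as they were for 2484 of all 5868 genes tested. Without the unsupplemented libraries 1 rose and 36 fell, where 23.4% and 26.8% of all genes tested rose and fell, and 19 were lower in the authors' deposited table, among 8.69% of all genes. The 3 called with all libraries were large-subunit genes. RPL39 had 125 and 108 CPM in T cultures against 510 and 750 CPM in TE cultures (-2.44 ± 0.35, adjusted p = 0.0144), RPL23A/RPL23B, at the face that meets the small subunit, had 508 and 461 CPM in T cultures against 1479 and 2358 CPM in TE cultures (-1.99 ± 0.44, adjusted p = 0.0483), and RPL37B/RPL37A had 293 and 287.7 CPM in T cultures against 706 and 921 CPM in TE cultures (-1.49 ± 0.33, adjusted p = 0.0475, edgeR quasi-likelihood test). RPP1A was at 624 and 587 CPM in T cultures and 2018 and 2696 CPM in TE cultures (-1.96 ± 0.56, adjusted p = 0.0914 with all libraries and 0.00676 without the unsupplemented ones, edgeR quasi-likelihood test). The 2 members with values above 0 were RPL8A and RPL4A. RPL8A was at 420 and 419 CPM in T cultures and 222 and 268 CPM in TE cultures, with no overlap (0.78 ± 0.49, adjusted p = 0.446 with all libraries and 0.019 without the unsupplemented ones, edgeR quasi-likelihood test). RPL4A was at 1023 and 1030 CPM in T cultures and 827 and 839 CPM in TE cultures (0.30 ± 0.78, adjusted p = 0.899, edgeR quasi-likelihood test). The count was 0 without any single aerobic, TE or T replicate, 11 without either Olim replicate, 38 without unsupplemented replicate 1 and 35 without unsupplemented replicate 2.

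**Figure D3:**
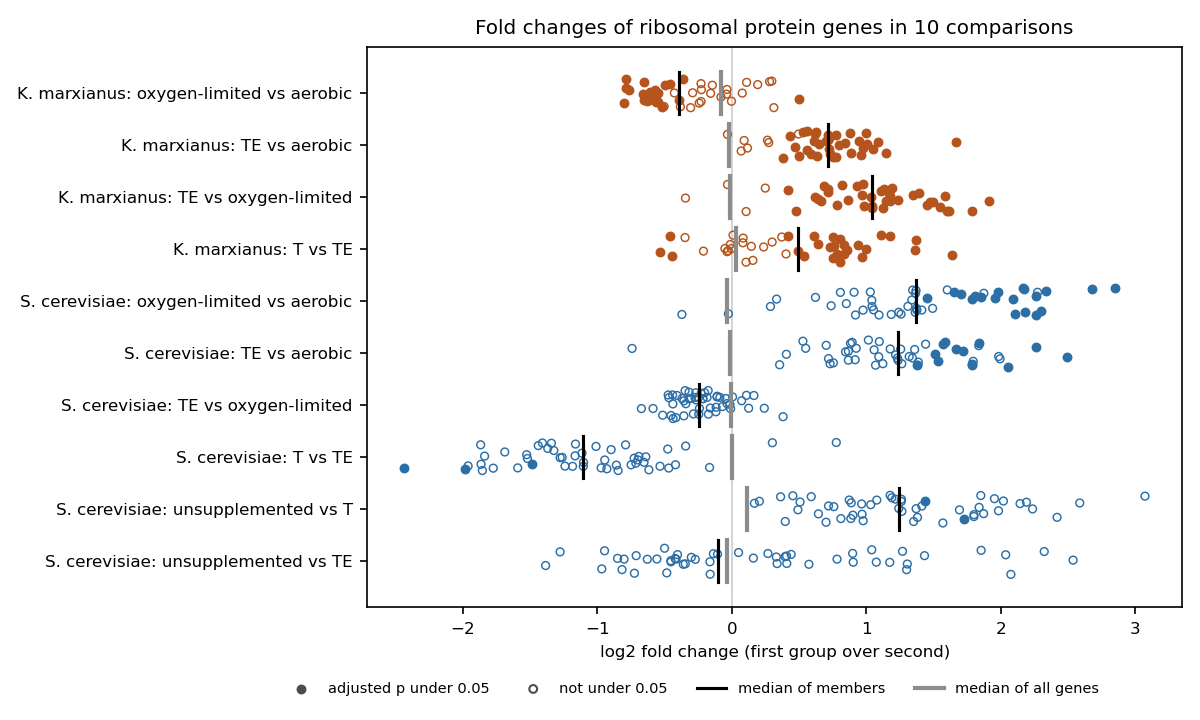
Log2 fold change of each member in each comparison (points, filled where the adjusted p is under 0.05; all libraries of the species in the fit), with the members' median and the median of all genes tested. The members centre at 0.71, 1.04 and 0.49 for TE against aerobic, TE against Olim and T against TE in K. marxianus, and at 1.24, -0.24 and -1.10 for the same comparisons in S. cerevisiae.

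The unsupplemented cultures of S. cerevisiae rest on libraries that differ from each other. The TMM factor was 0.371 in replicate 2 and 1.08 in replicate 1, so that CPM values of replicate 2 are scaled up. Members took 6.09% of its counts and 6.51% of those of replicate 1. Their median log2 CPM was 10.57 in replicate 2 and 9.98 in replicate 1. Against T cultures, 2 of 51 members rose and 0 fell, where 8.37% of all genes tested rose and 2.95% fell; the median log2 fold change was 1.24, beside 0.11 for all genes tested, a shift of all genes against which these values should be read. The authors' deposited table had 27 higher, among 21.5% of all genes. RPL39 had 389 and 381 CPM in unsupplemented cultures against 125 and 108 CPM in T cultures (1.72 ± 0.34, adjusted p = 0.0275), and RPS26A had 1800 and 2440 CPM in unsupplemented cultures against 802 and 764 CPM in T cultures (1.44 ± 0.37, adjusted p = 0.0491, edgeR quasi-likelihood test). In these genes the unsupplemented replicates lay close together. In others they did not: RPL2A/RPL2B, at the catalytic centre of the large subunit, had 1558 and 18232 CPM in unsupplemented cultures against 1193 and 1160 CPM in T cultures (3.07 ± 0.98, adjusted p = 0.072), and RPS31 had 3754 and 14978 CPM in unsupplemented cultures against 1671 and 1446 CPM in T cultures (2.59 ± 0.71, adjusted p = 0.054, edgeR quasi-likelihood test). The lowest were RPL34A (0.20 ± 0.31, adjusted p = 0.637), at 316 and 201 CPM in unsupplemented and 223 and 227 CPM in T cultures, and RPS1A (0.17 ± 0.41, adjusted p = 0.779, edgeR quasi-likelihood test), at 1597 and 1129 CPM in unsupplemented and 1249 and 1179 CPM in T cultures. Without unsupplemented replicate 2 the members' median was 0.57. A fit of the unsupplemented and T libraries alone called 0. Without unsupplemented replicate 1 the count of called members was 37, and without replicate 2 it was 4. It was 1 without either Olim replicate and 0 without any single aerobic, TE or T replicate.

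Against TE cultures, 0 of 51 members were called by edgeR's quasi-likelihood test in unsupplemented cultures, where 6.1% of all genes tested rose and 2.57% fell; 5 had an unadjusted p under 0.05, all higher, and DESeq2 called 5. The median was -0.11, beside -0.03 for all genes tested. RPL2A/RPL2B, at 1558 and 18232 CPM in unsupplemented and 1782 and 2172 CPM in TE cultures (2.32 ± 0.95, adjusted p = 0.141), and RPL4A, at 1077 and 8601 CPM in unsupplemented and 827 and 839 CPM in TE cultures (2.54 ± 0.82, adjusted p = 0.0884, edgeR quasi-likelihood test), were highest. RPL27A, at 1010 and 303 CPM in unsupplemented and 1323 and 1869 CPM in TE cultures (-1.28 ± 0.60, adjusted p = 0.178), and RPL38, at 1361 and 360 CPM in unsupplemented and 1908 and 2597 CPM in TE cultures (-1.38 ± 0.61, adjusted p = 0.162, edgeR quasi-likelihood test), were lowest. For all 4 genes unsupplemented replicate 2 lay outside the range of the other S. cerevisiae libraries. Without unsupplemented replicate 1 the count of called members was 25 and the median 0.27, and without replicate 2 they were 1 and -0.52.

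Some S. cerevisiae members carry an intron and others do not. The 25 with an annotated intron in R64 and the 26 without had median log2 fold changes of 1.37 and 1.37 for Olim against aerobic, and -1.16 and -0.99 for T against TE cultures. The same medians were 1.24 and 1.24 for TE against aerobic, and -0.24 and -0.24 for TE against Olim cultures. For unsupplemented against T the medians were 0.98 with and 1.38 without an intron, and for unsupplemented against TE cultures they were -0.35 and 0.40. These last 2 comparisons use the unsupplemented libraries, which differ from each other. Median gene length was 815 bases with and 590 without an intron, and its part in these values was not tested.

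The difference between species was tested directly, as the log2 fold change in K. marxianus minus that in S. cerevisiae, on 3885 genes matched 1 to 1, of which 31 are members. For Olim against aerobic cultures 0 members were higher and 25 lower in K. marxianus, where 28.4% of all matched genes were higher and 28% lower, with a median difference of -1.71, and of -1.10 without Olim replicate 1 of S. cerevisiae. RPL38 had log2 fold changes of -0.76 in K. marxianus and 2.34 in S. cerevisiae, a difference of -3.12 ± 0.40 (adjusted p = 3.8e-05, edgeR quasi-likelihood test of the interaction). RPS12 had -0.66 in K. marxianus and 2.18 in S. cerevisiae, a difference of -2.86 ± 0.47 (adjusted p = 0.000245, edgeR quasi-likelihood test of the interaction). For TE against Olim cultures 19 members were higher and 0 lower in K. marxianus, where 23.1% and 23.3% of all matched genes were, with a median of 1.3, and of 0.70 without Olim replicate 1 of S. cerevisiae. RPL38 and RPL32 had differences of 2.22 ± 0.40 (adjusted p = 0.000769) and 2.09 ± 0.35 (adjusted p = 0.000525, edgeR quasi-likelihood test of the interaction).

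The species also differed in the cultures without ergosterol. For T against TE cultures 23 members were higher and 2 lower in K. marxianus, where 25.7% and 24.8% of all matched genes were, with a median of 1.24. RPL38 had log2 fold changes of 1.37 in K. marxianus and -1.84 in S. cerevisiae, a difference of 3.21 ± 0.40 (adjusted p = 5.8e-05, edgeR quasi-likelihood test of the interaction), and RPS12 had 1.11 in K. marxianus and -1.77 in S. cerevisiae, a difference of 2.88 ± 0.47 (adjusted p = 0.000338, edgeR quasi-likelihood test of the interaction). The 2 lower members were RPL4A, with -0.53 in K. marxianus and 0.30 in S. cerevisiae (difference -0.84 ± 0.29, adjusted p = 0.029), and RPL8A, with -0.01 in K. marxianus and 0.78 in S. cerevisiae (difference -0.79 ± 0.28, adjusted p = 0.0297, edgeR quasi-likelihood test of the interaction). The species differed least in TE against aerobic cultures: 2 members were higher and 6 lower in K. marxianus, where 22.5% and 22.1% of all matched genes were, with a median of -0.57. The 2 higher were RPL8A, with 0.88 in K. marxianus and -0.74 in S. cerevisiae (difference 1.58 ± 0.28, adjusted p = 0.000578), and RPL30, with 1.66 in K. marxianus and 0.87 in S. cerevisiae (difference 0.75 ± 0.27, adjusted p = 0.0416, edgeR quasi-likelihood test of the interaction). The lowest were RPP1A (-1.53 ± 0.47, adjusted p = 0.019) and RPS20 (-1.33 ± 0.42, adjusted p = 0.0213, edgeR quasi-likelihood test of the interaction). The number called in TE against aerobic, 8 in either direction, depended on single libraries of both species. Its median difference ranged from -0.72 without TE replicate 1 of S. cerevisiae to -0.42 without TE replicate 2. The aerobic, Olim and TE libraries are each shared by more than 1 of these comparisons.

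**Figure D4:**
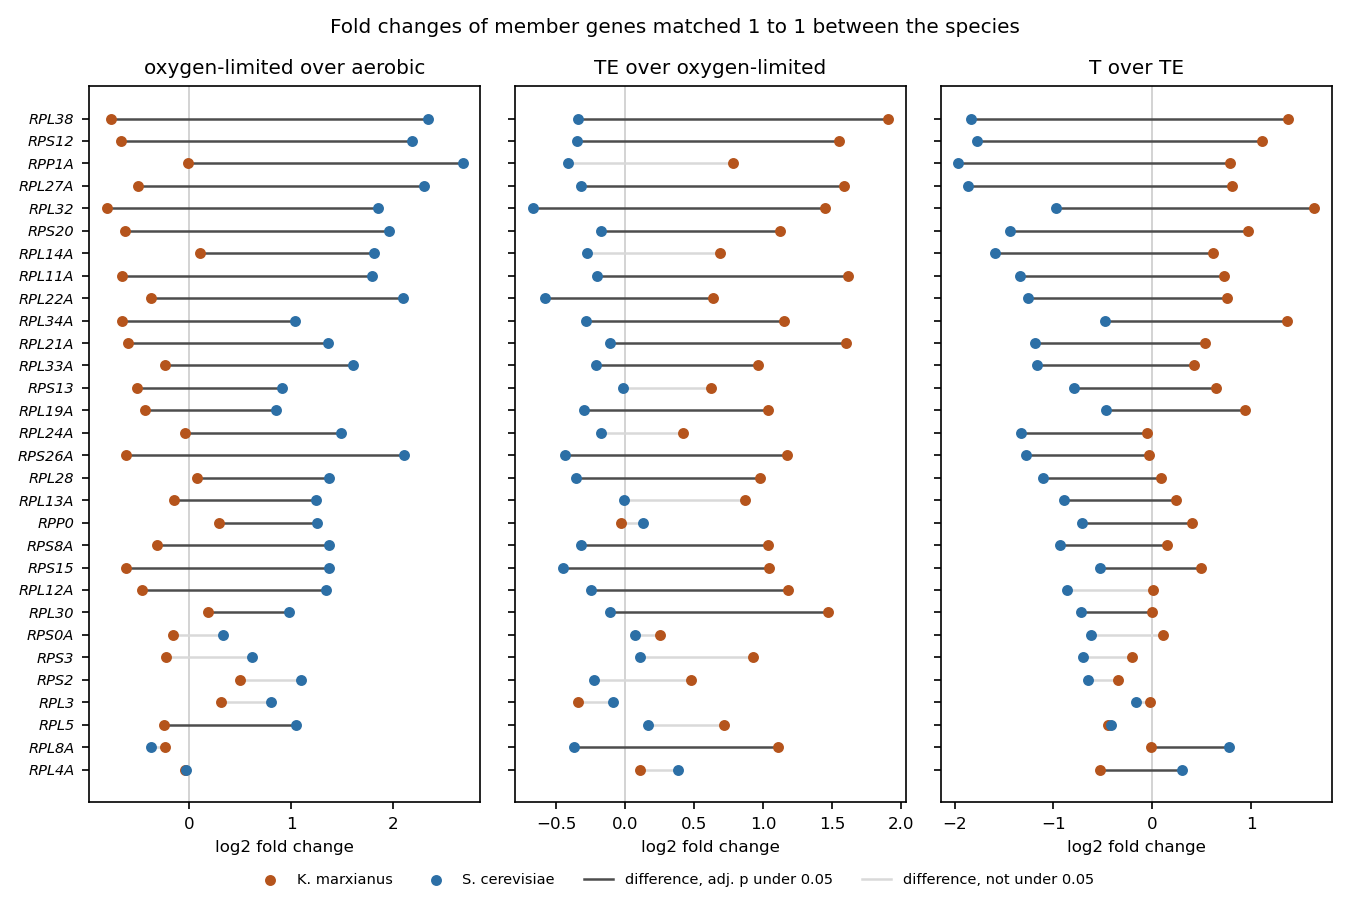
Log2 fold change (horizontal axis) of matched members in K. marxianus (orange) and in S. cerevisiae (blue), a row and a joining line per gene, for Olim against aerobic, TE against Olim and T against TE cultures; a dark line marks a difference with an adjusted p under 0.05. Most orange points lie left of the blue ones for Olim against aerobic and right of them for T against TE, where RPL4A and RPL8A are the other way round.

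Members are short genes, and short genes that encode no ribosomal protein had medians on the same side of 0 in several comparisons. The median member length was 768 bases in K. marxianus and 678 in S. cerevisiae, against 1185 and 1191 for all genes tested. Among genes of up to 600 bases, TE against Olim cultures of K. marxianus gave a median log2 fold change of 1.35 for 15 members and 0.42 for 933 genes that encode no ribosomal protein, and above 600 bases 0.97 for 28 members and -0.09 for 4135 such genes. In S. cerevisiae, Olim against aerobic cultures gave 1.85 for 19 members and 0.73 for 1077 other genes up to 600 bases, and 1.25 for 32 members and -0.16 for 4682 other genes above it. T against TE cultures of S. cerevisiae gave -1.34 and -0.83 up to 600 bases, and -0.91 and 0.10 above it, for members and other genes. The members' medians thus stood further from 0 than those of other genes in the same length class in each of these. Lengths include introns. As a description, Spearman's rho between log2 fold change and log2 length was -0.379 over 43 members and -0.344 over 5068 other genes for TE against Olim in K. marxianus, and 0.448 over 51 members and 0.536 over 5759 other genes for T against TE in S. cerevisiae; the points share their libraries.

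With a smooth trend on length taken out of each library, the K. marxianus counts of members that rose were 29 for TE against aerobic (26.2% of all genes tested), 34 for TE against Olim (23.6%) and 20 for T against TE (18.3%), with medians of 0.47, 0.84 and 0.38. The S. cerevisiae counts were 7 for Olim against aerobic (4.5% of all genes tested) and 3 for TE against aerobic (4.36%), and 1 fell in T against TE (0.596%), with medians of 1.07, 1.04 and -0.65. For the species difference they were 22 lower for Olim against aerobic (26.7% of all matched genes), 16 higher for TE against Olim (22.1%) and 15 higher for T against TE (21.2%).

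**Figure D5:**
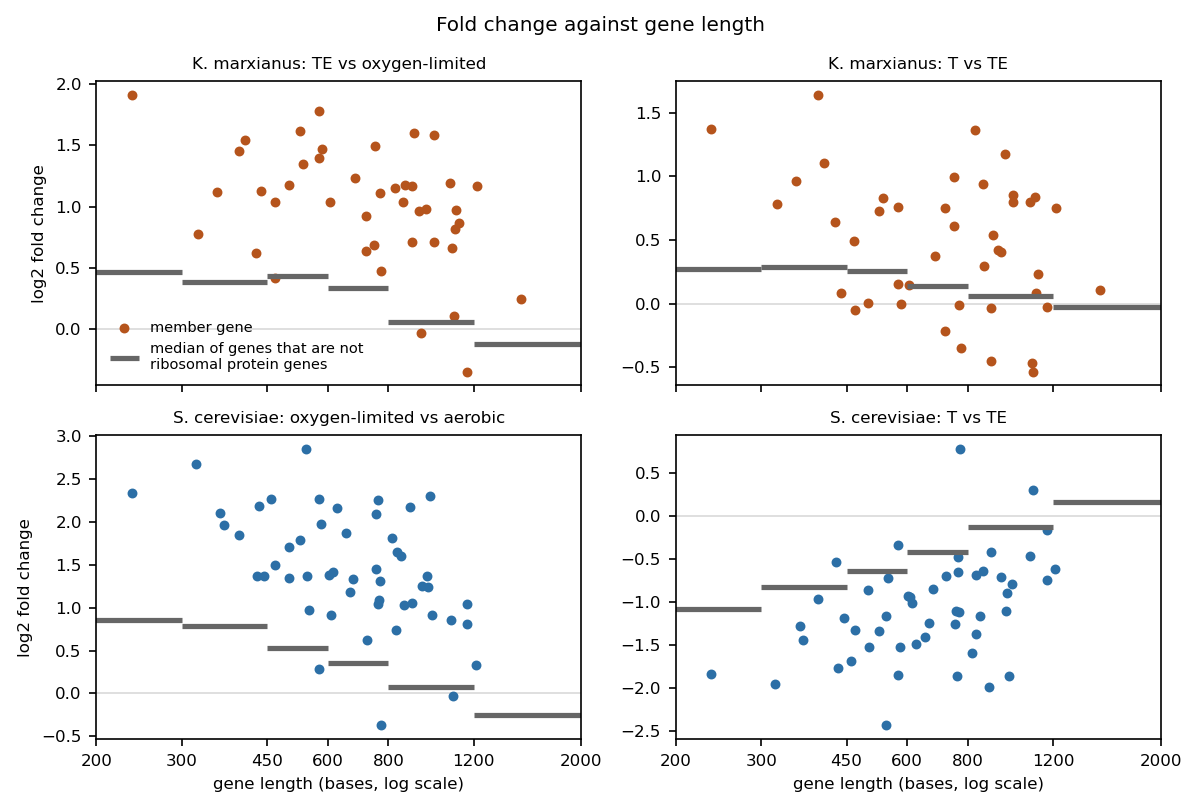
Log2 fold change of each member against gene length (bases, log axis) in 4 comparisons, with gray bars for the median of genes that encode no ribosomal protein in each length bin. In TE against Olim of K. marxianus the members lie above the gray bars at nearly every length, and in T against TE of S. cerevisiae they lie mostly below them.

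The other ribosomal protein genes were called mostly in the same directions as the members. This list of 82 further S288C loci matched 32 genes in K. marxianus and 58 in S. cerevisiae. In K. marxianus 1 rose and 12 fell in Olim against aerobic cultures, 31 rose in TE against aerobic, 32 rose in TE against Olim, and 21 rose and 1 fell in T against TE, with medians of -0.30, 0.86, 1.09 and 0.72. In the same order, 22%, 27.9%, 25.7% and 18.9% of all genes tested rose and 25%, 28.6%, 26.3% and 18.4% fell. In S. cerevisiae 32 rose in Olim against aerobic, 23 rose in TE against aerobic, 0 were called in TE against Olim and 11 fell in T against TE, with medians of 1.57, 1.33, -0.23 and -1.15 (edgeR quasi-likelihood test, adjusted over all genes tested). Of all genes tested, 7.98%, 6.15%, 0.835% and 1.72% rose and 6.12%, 6.95%, 1.28% and 3.32% fell. In the same 4 comparisons without the unsupplemented libraries, 52 rose and 1 fell, 53 rose, 1 rose and 1 fell, and 45 fell. Of all genes in that fit, 31.2%, 31.2%, 19.1% and 23.4% rose and 30.8%, 27.1%, 19.7% and 26.8% fell. The same shares stand beside the mitochondrial counts that follow, except those with the length trend taken out. Mitochondrial ribosomal proteins, which serve a separate ribosome, numbered 54 and 55 genes. In K. marxianus 4 rose and 23 fell in Olim against aerobic, 18 rose and 4 fell in TE against aerobic, 32 rose and 1 fell in TE against Olim, and 29 rose and 2 fell in T against TE, with medians of -0.29, 0.27, 0.50 and 0.53. With the length trend taken out, 4, 7, 13 and 24 rose and 15, 8, 4 and 2 fell in the same order. Of all 5143 genes tested 1120, 1350, 1215 and 943 then rose, and 1318, 1364, 1228 and 835 fell. The mitochondrial medians were then -0.24, 0.0066, 0.18 and 0.39. In S. cerevisiae 28 rose in Olim against aerobic, 5 rose in TE against aerobic, 0 were called in TE against Olim and 9 fell in T against TE, with medians of 1.46, 0.68, -0.82 and -0.90. With the length trend taken out, 15 and 1 rose in the first 2 of these and 0 were called in the others. Of all 5868 genes tested 264, 256, 51 and 67 then rose, and 282, 364, 66 and 35 fell. The mitochondrial medians were then 1.06, 0.44, -0.71 and -0.49. With the unsupplemented libraries left out, 55 rose in Olim against aerobic, 42 rose and 1 fell in TE against aerobic, 48 fell in TE against Olim and 45 fell in T against TE. The medians of the cytosolic members were higher than those of the mitochondrial genes in TE against Olim cultures of both species; that difference between lists has no test.

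Some regulators of these genes changed at the mRNA level. Of 8 K. marxianus regulators measured, 4 fell in TE against aerobic cultures: SCH9, a nutrient-sensing kinase (-1.49 ± 0.29, adjusted p = 0.00393), MRS6, which binds Sfp1 (-0.80), SFP1, an activator (-0.60), and DOT6, a repressor of ribosome biogenesis genes (-0.31; edgeR quasi-likelihood test). In TE against Olim cultures 4 fell, with SCH9 at -1.49, MRS6 at -1.11, SFP1 at -0.98 and FHL1 at -0.84. In T against TE 3 fell, DOT6 (-0.62), SFP1 (-0.53) and FHL1 (-0.44), and in Olim against aerobic 2 rose, FHL1 (0.60) and MRS6 (0.31). Of all K. marxianus genes tested, 28.6% fell in TE against aerobic, 26.3% in TE against Olim and 18.4% in T against TE. In Olim against aerobic 22% rose. Of 12 S. cerevisiae regulators 5 fell in Olim against aerobic cultures: CRF1, a corepressor (-2.67 ± 0.31, adjusted p = 0.00299, edgeR quasi-likelihood test), TOD6, a repressor like DOT6 (-2.58), SFP1 (-1.0), RAP1 (-0.97) and DOT6 (-0.73). In TE against aerobic CRF1 (-2.42) and SFP1 (-0.90) fell. SFP1 rose in T against TE cultures (0.88) and fell in unsupplemented against T cultures (-1.05), where CRF1 rose (1.69); in unsupplemented against TE cultures CRF1 (2.29) and TOR1 (0.89) rose. With all libraries, 6.12% of all genes tested fell in Olim against aerobic and 6.95% in TE against aerobic. In T against TE 1.72% rose. In unsupplemented against T 8.37% rose and 2.95% fell, and in unsupplemented against TE 6.1% rose. The unsupplemented comparisons rest on libraries that differ from each other. When the unsupplemented libraries were left out, 8 regulators fell in Olim against aerobic, 1 rose and 7 fell in TE against aerobic, 2 rose in TE against Olim and 7 rose in T against TE cultures. In the same order, 31.2%, 31.2%, 19.1% and 23.4% of all genes rose in that fit. The shares that fell were 30.8%, 27.1%, 19.7% and 26.8%.

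Dedicated chaperones hold single ribosomal proteins before assembly. Of 10 measured in K. marxianus, 6 rose and 1 fell in TE against aerobic cultures, where 27.9% of all genes tested rose and 28.6% fell: YAR1, for Rps3 (1.81 ± 0.24, adjusted p = 0.000661, edgeR quasi-likelihood test), SYO1, for Rpl5 and Rpl11 (1.51), SQT1, for Rpl10 (1.00), FAP7, for Rps14 (0.97), BCP1, for Rpl23 (0.71), and TSR2, for Rps26 (0.49) rose, and NAP1, a histone chaperone that also binds Rps6 (-0.56), fell. Against Olim cultures 7 rose, with SYO1 the highest (1.92 ± 0.30, adjusted p = 0.00195) and ACL4, the chaperone of Rpl4, at 1.01 (adjusted p = 0.00943, edgeR quasi-likelihood test). RPL4A itself, at 0.11, did not pass the test in that comparison. T cultures differed from TE cultures in 2 of these genes: ACL4 (0.79) and TSR2 (0.64) rose and 0 fell, while RPL4A fell. In Olim against aerobic YAR1 rose (1.06) and TSR2 fell (-0.54). Among all genes tested 25.7% rose and 26.3% fell in TE against Olim. The shares were 18.9% and 18.4% in T against TE and 22% and 25% in Olim against aerobic. In S. cerevisiae 0 of 11 were called in any comparison with all libraries (edgeR quasi-likelihood test). Without the unsupplemented libraries 1 rose and 1 fell in Olim against aerobic, 2 rose in TE against aerobic, 4 rose in TE against Olim, and 1 rose and 3 fell in T against TE. In the same order, 31.2%, 31.2%, 19.1% and 23.4% of all genes tested rose in that fit. The shares that fell were 30.8%, 27.1%, 19.7% and 26.8%.

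Some translation factors and ribosome-bound proteins were called as well. Of 21 K. marxianus translation factors 9 rose and 0 fell in TE against aerobic cultures, led by TIF11, the initiation factor eIF1A (1.12 ± 0.12, adjusted p = 0.000299, edgeR quasi-likelihood test), with SUI1, which is eIF1, at 0.90. In TE against Olim 7 rose, SUI1 at 1.22, and in T against TE 2 rose and 6 fell, with SUI1 at 1.05 and TIF2/TIF1, the helicase eIF4A, at -0.80. Olim against aerobic had 1 that rose, TEF4, a subunit of an elongation factor (0.86), and 2 that fell. Among all K. marxianus genes tested 27.9% rose and 28.6% fell in TE against aerobic and 25.7% and 26.3% in TE against Olim. The shares were 18.9% and 18.4% in T against TE and 22% and 25% in Olim against aerobic. Of 7 ribosome-bound proteins 4 rose in TE against aerobic: EGD2 (1.32) and EGD1 (1.2), subunits of the nascent-polypeptide-associated complex, ZUO1 (0.63), a J-protein at the exit tunnel, and ASC1 (0.52), a small-subunit scaffold. In TE against Olim 3 rose and in T against TE 1 fell, ASC1 (-0.54). With all libraries, 1 of 25 S. cerevisiae translation factors rose in Olim against aerobic cultures (7.98% of all genes tested). In TE against aerobic 2 rose and 1 fell (6.15% and 6.95%), and in TE against Olim 1 rose (0.835%). In T against TE 1 fell (3.32%), and in unsupplemented against T 1 rose and 3 fell (8.37% and 2.95%). The highest log2 fold changes in this list were 10.82 in TE against aerobic and 7.59 in TE against Olim. SUI1 rose in Olim (1.6) and in TE (1.32) against aerobic cultures. It fell in T against TE cultures (-1.50 ± 0.27, adjusted p = 0.0242, edgeR quasi-likelihood test). Leaving out the unsupplemented libraries, 7 of the 25 rose and 8 fell in Olim against aerobic, 7 rose and 2 fell in TE against aerobic, 8 rose and 1 fell in TE against Olim, and 5 rose and 6 fell in T against TE cultures. In the same order, 31.2%, 31.2%, 19.1% and 23.4% of all genes tested rose in that fit. The shares that fell were 30.8%, 27.1%, 19.7% and 26.8%. HYP2, the aerobic counterpart of ANB1, fell in TE against aerobic cultures (-2.70 ± 0.58, adjusted p = 0.0231, edgeR quasi-likelihood test), at 429 and 521 CPM in TE cultures against 3202 and 2963 CPM in aerobic cultures. Of 8 ribosome-bound proteins in S. cerevisiae, 0 were called in any comparison with all libraries (edgeR quasi-likelihood test), and without the unsupplemented libraries 2 rose and 1 fell in Olim against aerobic, 3 rose in TE against aerobic, 1 rose in TE against Olim and 1 fell in T against TE cultures.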

How the data were processed

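Poly(A) RNA from chemostat cultures was sequenced in 18 libraries. Per the file headers, the deposited values are raw counts of read pairs per gene from featureCounts 1.6.0, without a strand option and without multi-mapping reads, so that antisense or overlapping transcription is not told apart. Bowtie 1.2.1.1, SAMtools 1.3.1 and edgeR 3.28.1 are named in the submitters' processing notes. The authors' deposited comparison tables give, per the file headers, p-values, raw and adjusted, with a log2 fold change, a log2 CPM and a likelihood ratio, which is a score; calls from them are credited as such. The K. marxianus table for TE against Olim was line for line the same as another and was not used.

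Counts were tested in R 4.3.3 with edgeR 4.0.16 (filterByExpr: 5143 and 5868 genes tested in K. marxianus and S. cerevisiae; TMM scaling; 1 quasi-likelihood fit of group means per species with 4 and 5 residual degrees of freedom; Benjamini-Hochberg over all genes tested). CPM values are scaled by TMM. Species differences are an interaction in 1 fit of the 16 shared libraries. A length trend (lowess, span 0.4, over genes that encode no ribosomal protein) was added after seeing the data. DESeq2 1.42.0, other scalings and filters, paralogs summed, fits of 2 groups and leaving out each library were alternatives. The scripts were tested on simulated data. Genes with full statistics were, in each comparison, the 2 highest and 2 lowest by log2 fold change, the 5 most abundant, and members set by role; values of a few members are not reported here. The members and lists were chosen with earlier results of these data known. Introns and promoters come from the S288C reference R64.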

Additional observations from a re-analysis of the deposited data

Results flagged for a closer look

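These are differences between the species, each the log2 fold change in K. marxianus minus that in S. cerevisiae, flagged because the difference itself was called at an adjusted p of 0.05 in edgeR's quasi-likelihood test of the interaction. The numbers of members with a called difference were 25 of 31 for Olim against aerobic, 8 for TE against aerobic, 19 for TE against Olim and 25 for T against TE cultures. For Olim against aerobic, RPL38 (-3.12) and RPS12 (-2.86) were lowest. For TE against aerobic, RPL8A (1.58) and RPL30 (0.75) were higher and RPP1A (-1.53) and RPS20 (-1.33) lower. For TE against Olim, RPL38 (2.22) and RPL32 (2.09) were highest. For T against TE, RPL38 (3.21) and RPS12 (2.88) were higher and RPL4A (-0.84) and RPL8A (-0.79) lower. These comparisons share libraries.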

How the results depend on the processing

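The direction of the members held in most alternatives. The number called, species differences included, stayed close to its main value in 164 settings, moved in 83 and reversed in 1. Counts of members called, in either direction, were 22, 36, 39 and 26 in K. marxianus for Olim against aerobic, TE against aerobic, TE against Olim and T against TE cultures. In S. cerevisiae they were 19, 13, 0 and 3 for these, 2 for unsupplemented against T and 0 for unsupplemented against TE. DESeq2 called 36 for Olim against aerobic, 29 for TE against aerobic, 20 for T against TE, 32 for unsupplemented against T and 5 for unsupplemented against TE in S. cerevisiae. Without the unsupplemented libraries the first 3 of these comparisons had 46, 48 and 37. The shares of all genes called by DESeq2 and by the fits of 2 groups are not given here, so their counts cannot be set against them. Fits of the 2 groups compared alone gave 37 for Olim against aerobic and 0 for T against TE in K. marxianus, and 33, 51, 50 and 0 for Olim against aerobic, TE against aerobic, T against TE and unsupplemented against T in S. cerevisiae. With the length trend taken out, S. cerevisiae had 7, 3, 1 and 0 in the same order. RLE scaling or no filter on low counts gave 1 for T against TE and 1 for unsupplemented against T in S. cerevisiae. Scaling without ribosomal protein genes, or paralogs summed, also gave 1 for unsupplemented against T. In the added alternatives and fits of fewer samples the number of samples and the spread differ by construction; for the others the cause was not tested.

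Leaving out each library in turn, the counts ranged from 0 to 35, 22 to 39, 35 to 41 and 11 to 30 in K. marxianus. Those of S. cerevisiae ran from 0 to 46, 0 to 47, 0 to 0, 0 to 38, 0 to 37 and 0 to 25, in the order above. For the species difference in TE against aerobic cultures they ranged from 2 to 19. A group left with 1 library was assumed to vary like the other groups.

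Some values changed sign. RPP0 in TE against Olim of K. marxianus became 0.020 with scaling without ribosomal protein genes. RPL4A in Olim against aerobic of S. cerevisiae became 0.0091 with RLE scaling, 0.0087 with DESeq2, 0.016 with scaling without ribosomal protein genes and 0.0071 in a fit of 2 groups. With the length trend taken out, RPL34A (-0.14) and RPS1A (-0.18) changed sign in unsupplemented against T, as did the members' median in unsupplemented against TE (0.098) and the species difference of RPL4A in Olim against aerobic (0.034). That median was 0.057 with paralogs summed. Without single libraries, RPL3 in TE against aerobic of K. marxianus ranged from -0.075 to 0.14 and RPP0 in TE against Olim from -0.16 to 0.10. In S. cerevisiae, RPL4A in Olim against aerobic ranged from -0.38 to 0.26, RPL22A in TE against Olim from -1.0 to 0.0059 and the members' median there from -0.64 to 0.33. In unsupplemented against T, RPL34A ranged from -0.17 to 0.39 and RPS1A from -0.11 to 0.30. In unsupplemented against TE, the median ranged from -0.52 to 0.27 and RPL2A/RPL2B from -0.42 to 3.20. Species differences ranged from -0.30 to 0.32 (RPL4A) and -0.15 to 0.48 (RPL8A) in Olim against aerobic, and from -0.75 to 0.089 (RPL3) in TE against Olim.

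Library titles have a stem in common across T and TE of K. marxianus, and across unsupplemented and TE of S. cerevisiae, with 2 stem pairs each; the labels do not call them pairs. With the stem as a replicate block the counts were 10 and 0. Replicate differences of the groups correlated across genes at r = 0.186 (rho = 0.235, 5143 genes) and r = -0.0763 (rho = -0.074, 5868 genes); genes are not independent replicates. With 2 libraries a group, the median SE of a member's log2 fold change was 0.141 in K. marxianus and 0.448 to 0.459 in S. cerevisiae, which limits what could be called.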

Other observations

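RPL30 and RPL24A, both large-subunit genes, lie side by side and are transcribed away from each other in both species, 1267 bases apart in K. marxianus and 1156 in S. cerevisiae. In K. marxianus RPL30 had a log2 fold change of 1.66 and RPL24A of 0.38 in TE against aerobic cultures (adjusted p = 4.43e-05 and 0.0323, edgeR quasi-likelihood test), and 1.47 and 0.42 in TE against Olim cultures. In S. cerevisiae they had 0.98 and 1.49 in Olim against aerobic cultures. RPP1A and RPL13A lie tail to tail in both species, 470 bases apart in K. marxianus and 413 in S. cerevisiae. In S. cerevisiae they had 2.68 and 1.24 in Olim against aerobic cultures. The counts do not use strand, so reads past the end of a gene could fall in its neighbour; this was not tested.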
